A study of Saccharomyces cerevisiae with 50 samples.

Results

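The subject is a group of 35 budding yeast (Saccharomyces cerevisiae) genes whose products copy DNA at the replication fork or help to start copying at origins. The genes were chosen by open reading frame (ORF) name, by the known function of their products and not by their values, and are 35 of the 6205 ORFs with a row in the value table. They encode the replicative DNA polymerases alpha, epsilon and delta, the sliding clamp PCNA, the single-strand binding complex RPA, the clamp loaders, the enzymes that finish Okazaki fragments, the GINS complex and other initiation factors, and the proteins that hold the fork together. All 35 were measured at enough time points to be tested.

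RNA was measured in a yox1 deletion strain that had been arrested with alpha factor, the mating pheromone that holds a cells in G1, and then released into the rich medium YEPD. There were 25 time points, every 5 min from 0 to 120 min, with 2 arrays for each and so 50 arrays. On every array the Cy5 channel held RNA of the mutant culture and the Cy3 channel held RNA of an asynchronous wild-type culture grown overnight in YEPD, so each value is a log2 ratio of the mutant at that time to that reference. By their titles the arrays form 2 sets, each of which covers every time once. The repeat arrays are called technical in the design text, so they form 1 time course of 1 deletion strain, and p-values below measure the scatter of time points around it and not the spread between cultures. A time course of wild-type cells was not used here. The timing of each gene is therefore that of the mutant, and what the deletion changed cannot be told apart from the course of the cell cycle. YOX1 encodes a homeodomain repressor that acts at early cell cycle box promoters around the M/G1 transition.

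Several facts of the whole series bear on the values. The probe for the deleted gene, YOX1, read lower than the reference on each of the 49 arrays with a value for it. Its mean was -1.10 ± 0.07 (SE, log2; treat in limma against 1.5-fold, adjusted p = 1.09e-06), and whether the probe lies in the deleted stretch is not stated. All 6 a-cell markers lay between 0.72 and 3.71 at 0 min, and all 4 pheromone response genes between 3.82 and 5.88. The 3 alpha-cell markers measured at that time lay between -0.28 and 0.48. Over the whole course the medians of the 6 a-cell markers lay below the reference, between -1.61 for BAR1 and -0.27 for STE6. Ratios at 25, 40 and 55 min were more widely spread over genes, with an SD of 0.744 to 1.23 on those 6 arrays against 0.333 to 0.828 on the other 44. The titles of 3 arrays of set 2 (0, 5 and 15 min) have an M where all others have a shared number, and what the M stands for is not stated. An array titled 75 min is called 0 min in its source name and was used as 75 min. The labels' protocol speaks of samples 10 min apart, but the design text and the times themselves are 5 min apart.

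Replication genes of budding yeast are classic members of the G1/S wave. Late in G1 the cyclin kinase activates MBF (the MluI cell cycle box binding factor), which then switches on genes for DNA synthesis, and their RNA falls again once S phase is under way. Origins are licensed in G1 by loading the Mcm2-7 helicase. They are fired in S phase when Cdc45 and GINS join that helicase with the help of Sld3, Sld2 and Dpb11, after which primase and the 3 polymerases copy the strands.

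Most of these genes rose and fell with the cell cycle in the yox1 mutant. A periodic gene is one whose profile was fitted by a cosine wave with a period of 70 min beside a linear trend, at a Benjamini-Hochberg adjusted p under 0.01 in limma's moderated F-test. Of the 35 genes, 23 were periodic, against 13.2% of all 6063 genes tested. The titles of the arrays carry dates, here lettered, whose meaning is not stated. Within single title dates 7 of 34 genes were periodic on the 13 arrays of date A, 15 of 33 on the 12 of date B, 0 of 34 on the 8 of date D and 17 of 34 on the 14 of date E, against 2.72%, 7.99%, 0% and 9.28% of all genes. These fits had no linear trend. Date B ran from 60 to 115 min and date D from 20 to 55 min. Neither holds a whole period, so their counts cannot show whether a wave repeats. Dates A and E covered more than 1 period, but with gaps in time. In each array set taken alone, 19 of the 34 genes that could be tested in both were periodic in both, against 6.7% of all genes. The peak-to-trough size, the full height of the fitted wave on the log2 scale, had a median of 0.84 over the 35 genes and of 0.30 over all genes. Its largest values were 2.15 ± 0.36 (SE, 25 time points) for POL30 and 2.05 ± 0.27 for POL1, equal to 4.45-fold and 4.14-fold. RNA was measured in whole cultures, so a larger share of cells in late G1 and more RNA per cell cannot be told apart.

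**Figure D1:**
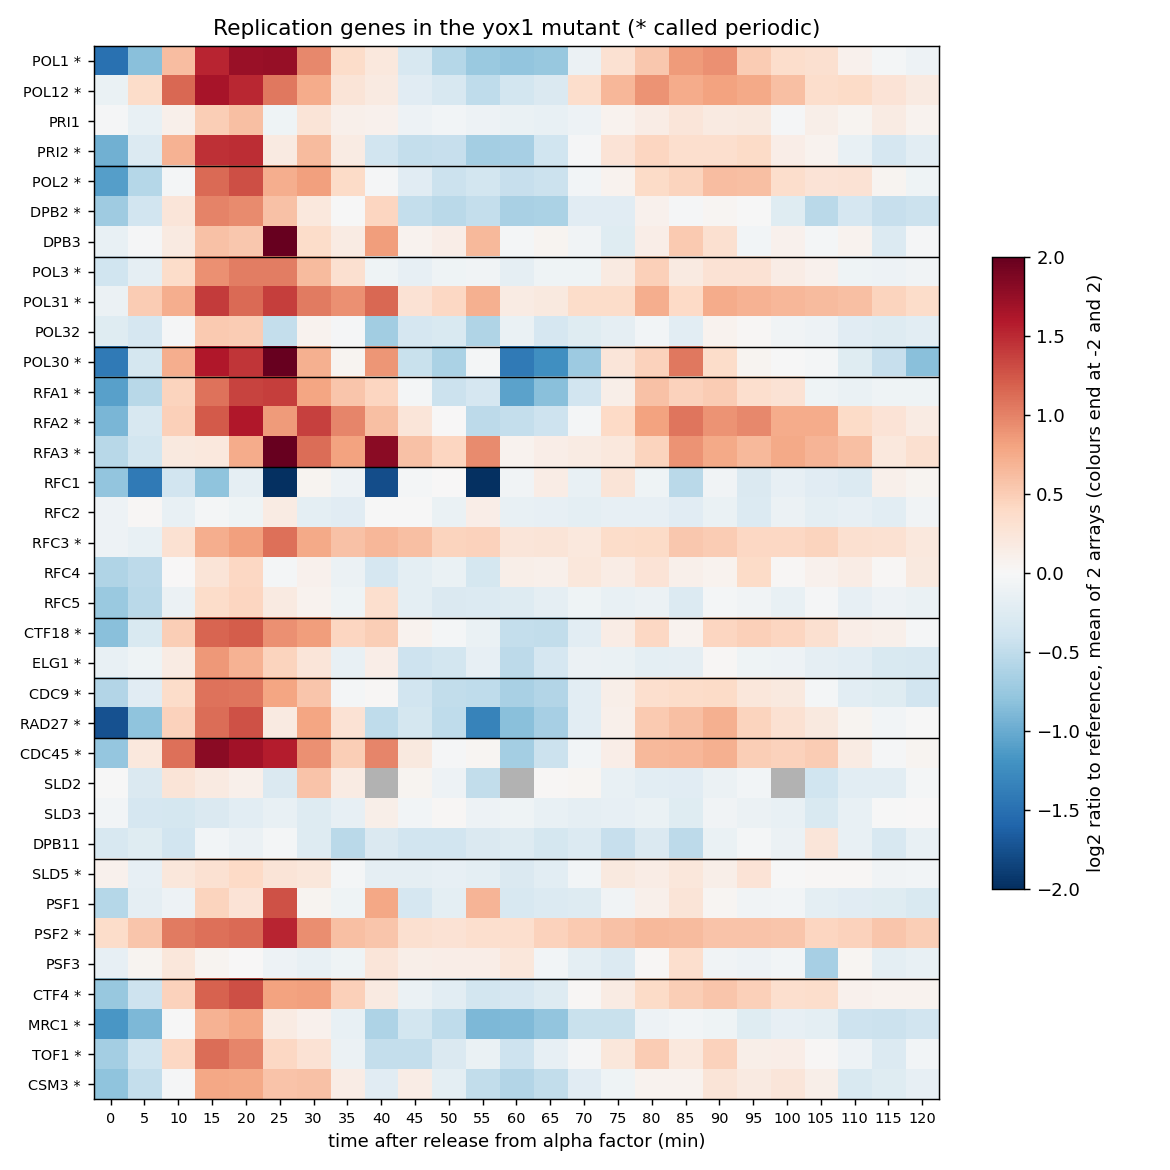
The colour map shows the log2 ratio to the asynchronous reference of each of the 35 genes (vertical axis, grouped by complex, asterisk for a periodic call) at each time after release in min (horizontal axis), as the mean of 2 arrays, with grey for missing values. Most rows turn red at 15 to 30 min, blue at 50 to 65 min and paler red at 80 to 100 min; the columns of 25, 40 and 55 min stand out in RFC1, RFA3, DPB3, PSF1 and POL30.

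The course of the group can be followed through its median. At 0 min the median of the 35 genes lay at -0.58 on the log2 scale and 2 of 35 lay above the reference. It was -0.30 at 5 min and 0.25 at 10 min, when 25 of 35 lay above the reference. At 15 and 20 min it stood at 0.86 and 0.82, with 31 of 35 above the reference at both times. It was 0.56 at 30 min, 0.14 at 35 min and -0.16 at 45 min, reached its lowest value after the first wave at 60 min with -0.33, and had a second maximum of 0.34 at 80 min, with 0.32 at 90 min, and stood at -0.06 at 120 min. The group was thus at its lowest in the arrested cells, and 20 of the 35 genes had the lowest value of their whole course at 0 min, against 6.68% of all genes.

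Peak times lay close together. Over the 23 periodic genes the fitted peak had a median of 23.7 min after release, an SD of 3.23 min and a range of 18.6 to 32.1 min. Its quartiles were 22.2 and 25.1 min, against 20.9 and 55.5 min over all 799 periodic genes. All 23 had their highest value of the first 60 min at 15, 20 or 25 min. The share of all genes highest at these times was not computed. Between the highest value of the first 60 min and that of the later samples lay a median of 65 min over the 23 genes, with a range of 55 to 75 min. For POL1, POL3, POL30, RFA1, RFA3, RFC3 and PSF2 the first of these values was that of 25 min, a sample of wider spread over genes. For comparison, RNR1, the large subunit of ribonucleotide reductase and a late G1 marker, had its fitted peak at 22.2 ± 1.86 min (SE), and the histone genes HTA1 and HHF1, which mark S phase, at 35.2 ± 1.43 and 34.4 ± 1.70 min. These markers also departed at 25 min: RNR1 stood at -0.38 between 2.03 and 1.11, and HHF1 at 2.64 between 0.005 and 1.30. Their peaks without 25, 40 and 55 min were not examined.

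**Figure D2:**
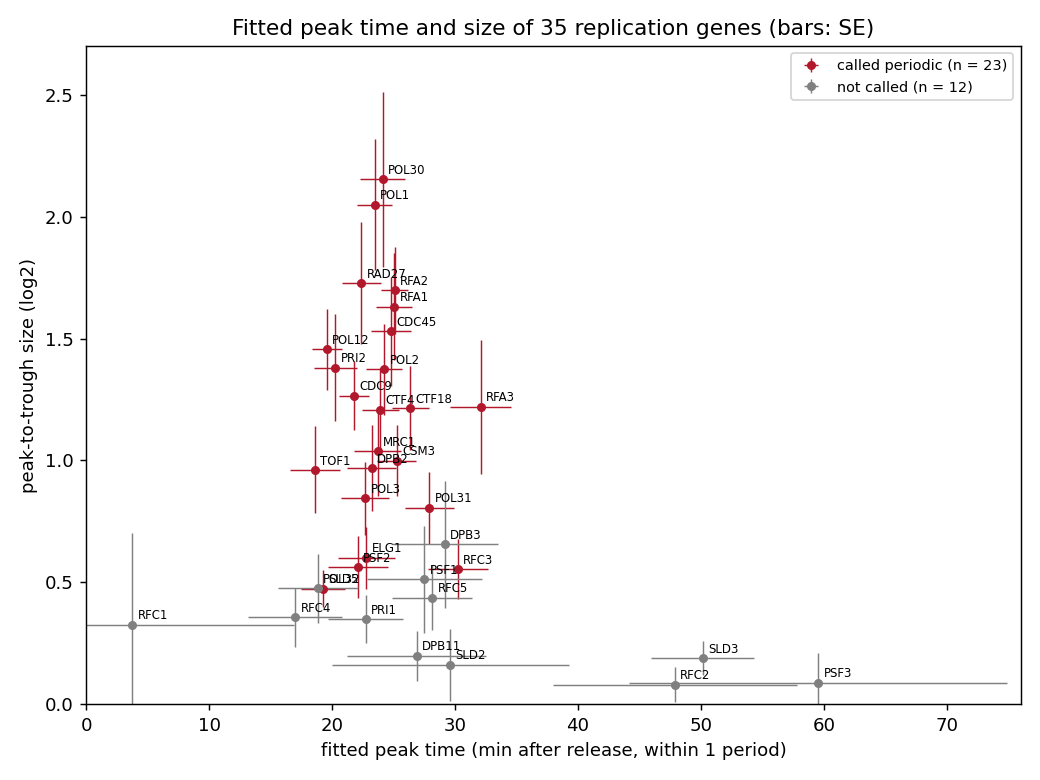
Each point is 1 of the 35 genes, placed by its fitted peak time (horizontal axis, min after release within 1 period) and its peak-to-trough size (vertical axis, log2), with bars for SE; red marks the 23 periodic genes. The red points stand in a column from 18.6 to 32.1 min whose height runs from 0.47 to 2.15, while the grey points away from it have small sizes and wide bars for the peak time.

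To set the waves against each other, time points were put into windows. They were named arrest (0 to 10 min), first wave (15 to 30 min), trough (50 to 65 min) and second wave (85 to 100 min). The arrest holds 3 time points and each of the others named here 4. Only the sample of 0 min in the arrest window was of arrested cells, as those of 5 and 10 min came after release. FUS1, a pheromone-induced gene, was at 3.82, 0.56 and -0.57 at 0, 5 and 10 min. A rise at release is below the rise from this mixed window to the first wave. Differences between windows are log2 differences of time point means, given with SE, and were tested with limma over all genes at an adjusted p under 0.05. From arrest to the first wave 24 of 35 genes rose and 0 fell, against 5.51% and 4.44% of all genes. The first wave lay above the trough for 24 genes and below it for 0, against 8.16% and 7.64%. In the second wave 10 genes lay above the trough and 0 below it, against 2.38% and 1.35% of all genes. Without regard to a test, the first wave lay above the arrest for 34 genes and above the trough for 32, and the second wave above the trough for 32, where all genes had shares of 48.1%, 48.1% and 46.7%.

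DNA polymerase alpha-primase makes the RNA-DNA primers that start every new strand, and 3 of its 4 genes were periodic. POL1 (YNL102W), its catalytic subunit, ran from -1.75 to 0.65 on the 6 arrays of the arrest, with a median of -0.84. On the 8 arrays of the first wave POL1 ran from 0.69 to 1.83, with a median of 1.64, and on the 8 arrays of the trough from -0.88 to -0.34. No array of the first wave overlapped either of the other windows. The rise at release was 2.06 ± 0.32 (adjusted p = 0.000268) and the height over the trough 2.20 ± 0.30, or 4.61-fold (adjusted p = 4.01e-05, both by limma).

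POL12 (YBL035C), the regulatory B subunit, stood apart from POL1 in the arrest window, whose samples of 5 and 10 min came after release. On the 6 arrays of 0 to 10 min POL12 ran from -0.38 to 1.29. It was at -0.14 at 0 min, 0.37 at 5 min and 1.14 at 10 min, when POL1 was at -1.49, -0.84 and 0.62. It was the only 1 of the 35 genes that was higher in the arrest window than in the trough (0.83 ± 0.23, limma adjusted p = 0.0218; 5.92% of all genes were called higher), while 0 of the 35 were lower there (4.01% of all genes). The call of POL12 was lost with any 1 of the samples of 5, 10 and 55 min left out, with array set 2 alone and within title date A; without 5 min SLD5 was called in its place. No gene had every array of the arrest below every array of the trough (2.16% of all genes) or above it (3% of all genes). Its fitted peak, 19.6 ± 1.25 min, was among the earliest, and its size was 1.46 ± 0.17. PRI2 (YKL045W), the large primase subunit, had a size of 1.38 ± 0.22 and a peak at 20.3 min. PRI1 (YIR008C), the catalytic primase subunit, had a size of only 0.35 ± 0.10 and was not called periodic (limma adjusted p = 0.0317), although it lay above its trough in the first wave by 0.42 ± 0.12 (adjusted p = 0.0144).

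DNA polymerase epsilon, which copies the leading strand, had 2 periodic subunits of 3. POL2 (YNL262W), the catalytic subunit, ran from -1.16 to 0.05 in the arrest and from 0.46 to 1.60 in the first wave, so the 2 windows did not overlap. Its rise at release, 1.56 ± 0.20, had a limma adjusted p of 3.73e-05. DPB2 (YPR175W), the essential second subunit, had a size of 0.97 ± 0.18 and a median of -0.02 on the 8 arrays of the second wave, at the level of the reference. DPB3 (YBR278W), a small histone-fold subunit, was not called (size 0.66 ± 0.26, adjusted p = 0.159 by limma). It lay 1.06 above the neighbouring times at 25, 40 and 55 min. Its value at 25 min was 2.30, from array set 1 alone, as set 2 had none. At 40 and 55 min it was at 1.26 and 1.06 in set 1 and at 0.42 and 0.22 in set 2.

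DNA polymerase delta, which copies the lagging strand, likewise had 2 periodic subunits of 3. POL3 (YDL102W), the catalytic subunit, ran from -0.51 to 0.50 in the arrest, from 0.54 to 1.47 in the first wave, from -0.41 to 0.12 in the trough and from -0.05 to 0.43 in the second wave, so every array of the first wave lay above every array of the other 3 windows. Its size was 0.84 ± 0.15. POL31 (YJR006W), the second subunit, had a size of 0.81 ± 0.15 and stayed above the reference in most samples, with 0.05 to 0.79 on the 8 arrays of the trough. POL32 (YJR043C), the small subunit that binds PCNA, was not called (size 0.48 ± 0.14, limma adjusted p = 0.0419), but was called without 25, 40 and 55 min (adjusted p = 0.0063).

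POL30 (YBR088C) encodes PCNA, the ring that tethers the polymerases to DNA, and had the largest size of the 35 genes. It ran from -1.58 to 1.13 in the arrest with a median of -0.35, from 0.51 to 3.43 in the first wave with a median of 1.59, and from -1.65 to 0.89 in the trough with a median of -0.93. Single arrays of these windows overlapped: the mean of 25 min was 2.74 beside 1.43 at 20 min and 0.72 at 30 min, and that of 55 min was -0.04 beside -0.63 and -1.41. At 25, 40 and 55 min POL30 lay 1.24 above the neighbouring times on average. Without these times its size was 2.12, with a limma adjusted p of 5.76e-05.

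All 3 genes of RPA, which coats single-stranded DNA, were periodic. RFA2 (YNL312W), the middle subunit, had the smallest periodic adjusted p of the group, 2.61e-06 by limma, with a size of 1.70 ± 0.18. It ran from -0.99 to 0.72 in the arrest, from 0.65 to 1.69 in the first wave, from -0.62 to 0.20 in the trough and from 0.50 to 1.26 in the second wave, so both waves stood clear of the trough on every array. RFA1 (YAR007C), the large subunit, had a size of 1.63 ± 0.22, and both had a fitted peak at 25 min (25.0 ± 1.46 for RFA1 and 25.1 ± 1.14 for RFA2). RFA3 (YJL173C), the small subunit, peaked at 32.1 ± 2.48 min with a size of 1.22 ± 0.27. Its values at 25, 40 and 55 min were 2.45, 1.80 and 0.95, or 1.11 above neighbouring times on average, and without them the peak was at 29.2 min and the size 0.91.

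**Figure D3:**
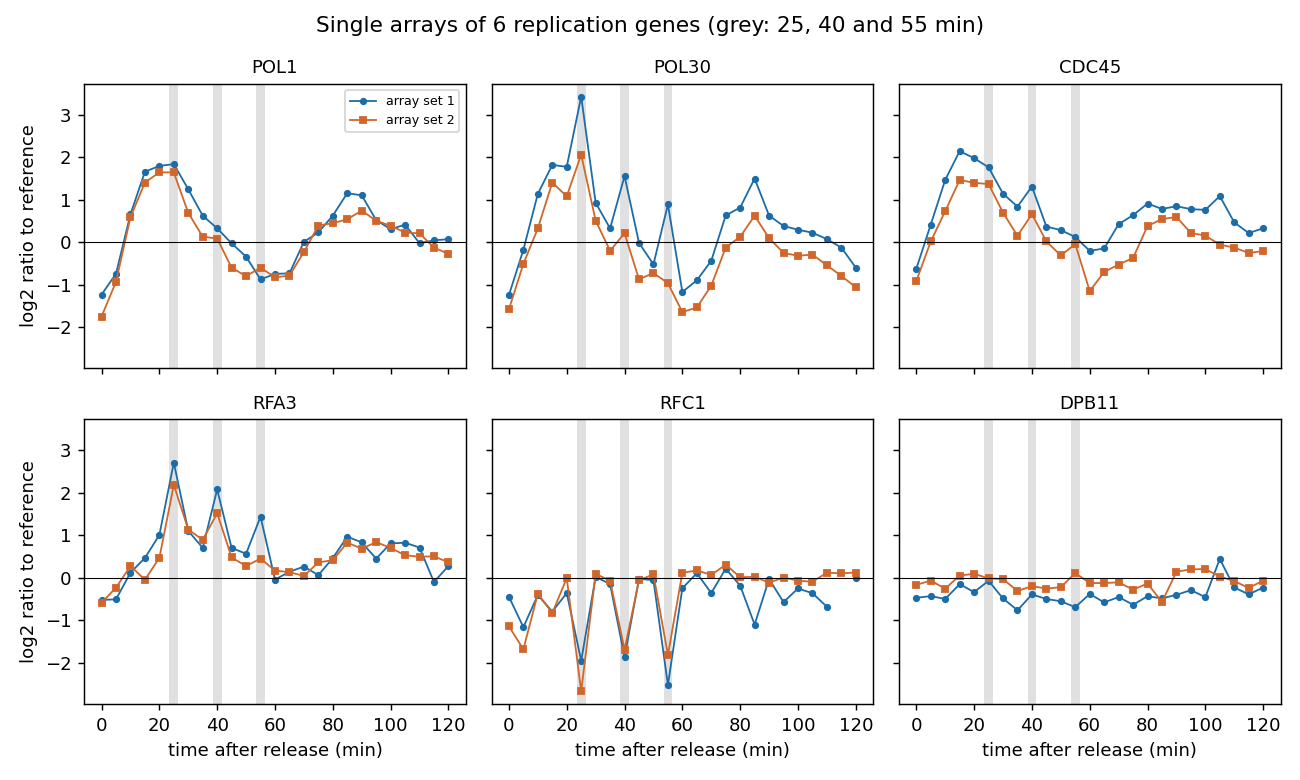
The 6 panels plot the log2 ratio to the reference (vertical axis) against time after release in min (horizontal axis) for single arrays of POL1, POL30, CDC45, RFA3, RFC1 and DPB11, with blue circles for array set 1, orange squares for array set 2 and grey bars at 25, 40 and 55 min. Both sets show maxima of POL1 at 20 or 25 min and at 85 or 90 min. CDC45 is highest at 15 min in both sets, and later at 105 min in set 1 and 90 min in set 2. POL30 and RFA3 jump up and RFC1 jumps down at 25 and 40 min in both sets. At 55 min RFC1 does so again in both sets, and RFA3 stands above its neighbours in both, by less in set 2. POL30 at 55 min is up in set 1 and lies between its neighbours in set 2. DPB11 has no wave that passed the test.

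The clamp loaders were divided. RFC loads PCNA at primer ends, and of its 5 genes only RFC3 (YNL290W), for 1 of the small subunits, was periodic (size 0.55 ± 0.12, limma adjusted p = 0.00591). RFC5 (YBR087W) and RFC4 (YOL094C), for other small subunits, rose at release by 0.73 ± 0.13 (adjusted p = 0.00127) and 0.55 ± 0.14 (adjusted p = 0.0176). RFC5 ran from -0.76 to -0.06 in the arrest and from -0.0039 to 0.44 in the first wave with no overlap, but from -0.45 to 0.03 in the second wave. RFC2 (YJR068W), also for a small subunit, had a size of 0.08 ± 0.07, the smallest of the 35, and its time points ranged from -0.27 to 0.17.

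RFC1 (YOR217W), the large RFC subunit, had the lowest mean over the course, -0.45 ± 0.13, and departed most at 25, 40 and 55 min. It was at -2.31, -1.78 and -2.17 at 25, 40 and 55 min, 2.03 below its neighbours on average, and between -1.42 and 0.26 at all other times. Without those 3 times it was again not called periodic (limma adjusted p = 0.468). The 2 genes of alternative loaders, in which another large subunit takes the place of Rfc1, were both periodic. CTF18 (YMR078C), which serves sister chromatid cohesion, had a size of 1.21 ± 0.17 and a peak at 26.4 min, and ELG1 (YOR144C), which unloads PCNA, had a size of 0.60 ± 0.13 and a peak at 22.8 min.

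Both enzymes that finish Okazaki fragments were periodic. RAD27 (YKL113C), the flap endonuclease, had the lowest value of the 35 genes at 0 min, -1.75, and stood at 1.27 at 20 min, with a size of 1.73 ± 0.25. At 25 min it was at 0.17, below both of its neighbours. CDC9 (YDL164C), the DNA ligase, ran from -0.65 to 0.65 in the arrest, from 0.38 to 1.18 in the first wave, from -0.85 to -0.38 in the trough, and reached 0.67 in the second wave with a median of 0.28. Its first wave lay above its trough by 1.43 ± 0.17, the smallest adjusted p of the group for that difference (8.56e-06 by limma).

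Of the 4 initiation factors only CDC45 (YLR103C), a core part of the active helicase, was periodic. It was at -0.77 at 0 min, 0.21 at 5 min, 1.09 at 10 min and 1.80 at 15 min, with a size of 1.53 ± 0.22 and a limma adjusted p of 0.000109. SLD3 (YGL113W), SLD2 (YKL108W) and DPB11 (YJL090C), the factors that bring Cdc45 and GINS to the origin, had sizes of 0.19 ± 0.07, 0.16 ± 0.15 and 0.20 ± 0.10, and none was called periodic or different between windows. SLD2 was measured on 29 arrays and at 22 time points only. DPB11 stayed between -0.54 and 0.24 and SLD3 between -0.36 and 0.12 over the whole course.

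GINS, the 4-subunit ring that works with Cdc45, was split evenly. PSF2 (YJL072C) had a size of 0.56 ± 0.13 and lay above the reference on every array of the arrest (0.36 to 1.16), the first wave (0.78 to 1.78) and the trough (0.11 to 0.55). SLD5 (YDR489W) had the smallest size of the periodic genes, 0.47 ± 0.08, with a limma adjusted p of 0.000304. PSF1 (YDR013W) was not called (size 0.51 ± 0.22, adjusted p = 0.206), lay 1.01 above neighbouring times at 25, 40 and 55 min, and was called without them (adjusted p = 0.00132). PSF3 (YOL146W) had a size of 0.09 ± 0.12, with time points between -0.66 and 0.34.

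All 4 genes of fork protection were periodic, with sizes of 0.96 to 1.21 and peaks between 18.6 and 25.3 min. CTF4 (YPR135W), the trimeric hub that ties polymerase alpha to the helicase, ran from -0.93 to 0.47 in the arrest and from 0.58 to 1.47 in the first wave without overlap, and rose by 1.26 ± 0.20 (limma adjusted p = 0.000308). MRC1 (YCL061C), the checkpoint mediator, was the lowest of the 4, with a mean of -0.30 ± 0.06 over the course and a median of -0.18 in its second wave. TOF1 (YNL273W) and CSM3 (YMR048W), partners in the fork pausing complex, had fitted peaks at 18.6 ± 2.04 and 25.3 ± 1.59 min. CSM3 rose by 1.11 ± 0.15 at release, and its arrays in the arrest (-0.86 to -0.01) and in the first wave (0.16 to 0.99) did not overlap.

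Across the group, every array of the first wave lay above every array of the arrest for 9 genes (2.08% of all genes) and above every array of the trough for 19 (2.49%). The reverse held for 0 genes in both comparisons (1.09% and 1.52% of all genes). The median rise at release was 0.92 on the log2 scale over the 35 genes, against -0.01 over all genes, and the median height of the first wave over the trough 0.91 against -0.02. The release count was lower without 1 of the first samples: 12 of the 24 genes were called without 0 min and 16 without 5 min, where the share of all genes called higher was 2.56% and 2.93%. With all windows moved 5 min later, so that the first of them holds the sample of 15 min and not that of 0 min, 2 genes were called, against 2.82% of all genes. Date A was the only one with at least 2 arrays of both windows; it gave 3 calls among 34 genes, against 0.436% of all genes, and a median rise of 0.94, with 31 of 34 differences above 0. For the first wave over the trough, dates A and D gave 0 calls among these genes and 0 among all genes, with median differences of 0.92 and 0.83.

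The first wave was higher than the second for 8 of the 35 genes by limma's test of that difference, against 3.78% of all genes, and lower for 0 (2.54%). Without regard to the test, it was higher for 32 of 35, against 51.1% of all genes, and the median difference was 0.48 against 0.01. The 8 genes were DPB2, POL3, POL31, RFC3, ELG1, CDC9, PSF2 and CSM3, with differences from 0.38 for RFC3 to 0.74 for DPB2. For POL3 and POL31 alone every array of the first wave lay above every array of the second, as for 1.5% of all genes, and for none did every array lie below (1.2% of all genes). As a share of the height of the first wave over the trough, the second had a median of 0.526 over the 23 periodic genes, with a range of 0.237 to 0.807. The window of the second wave began at 85 min, after the second maximum of the group median at 80 min. Of the 35 genes, 7 had their highest value of the samples from 65 min on at 80 min. DPB2, POL3 and PSF2 of the 8 were among them, while the others of the 8 had it at 85 or 90 min. What this did to the share and to the differences was not tested. Of the 10 genes whose second wave lay above the trough by the test, POL1, POL12, POL2, RFA1, RFA2, CDC9, RAD27 and CTF4 did so on every array, while arrays of SLD5 and CSM3 overlapped. With PRI2, which did not pass the test, 9 genes were separate on every array, against 2.67% of all genes, and 0 were separate in the other direction (1.24%).

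**Figure D4:**
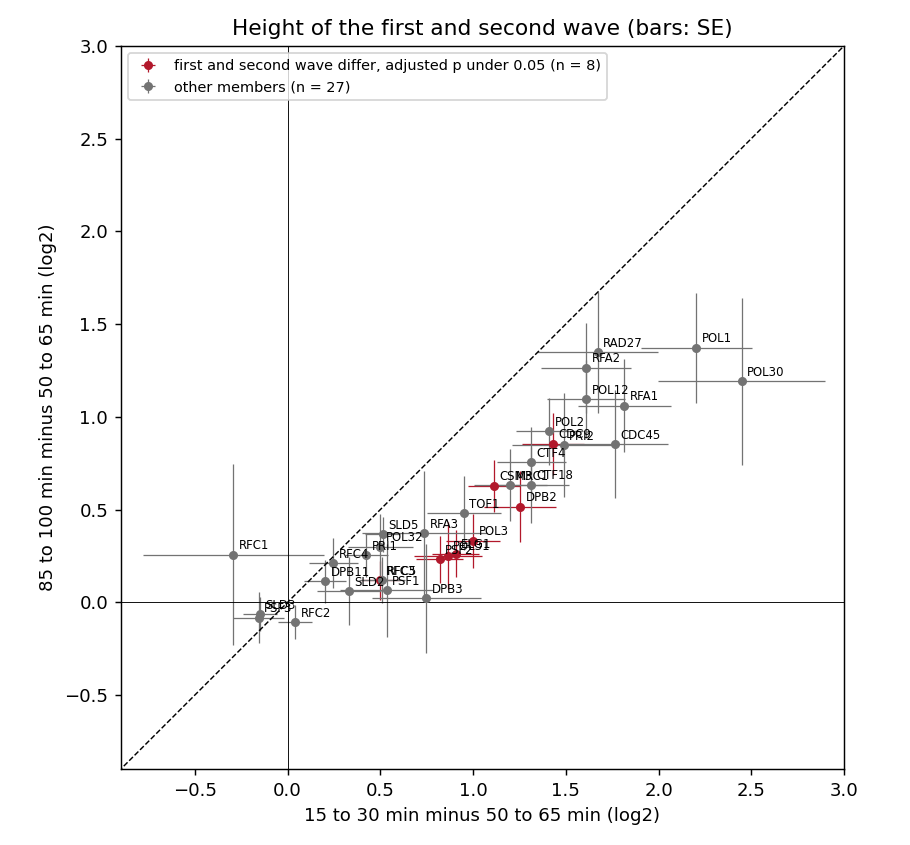
Each point is 1 of the 35 genes, with the height of the first wave over the trough on the horizontal axis and that of the second wave over the trough on the vertical axis (both log2 differences, bars for SE, dashed line for equal heights); red marks the 8 genes whose waves differed at an adjusted p under 0.05. All but 3 points lie below the dashed line, with POL30 and POL1 farthest to the right.

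The count of 8 depended on the processing and on single samples. It was 1 with arrays scaled to the same spread (2.77% of all genes) and with windows moved 5 min later (2.49%), 4 with title date (1.34%) and 18 with array set as a factor (5.28%), and 3 with array set 1 alone (2.02%). With single time points left out it ran from 3 without 20, 95 or 100 min to 16 without 30 min (5.16% of all genes). It was 15 without 25, 40 and 55 min (7.56%). The median difference over the 35 genes was not computed with single time points left out. Over the other settings that median lay between 0.29 with arrays scaled to the same spread and 0.53 with title date as a factor or without the arrays titled M. The second wave over the trough was called for 5 genes without 60 or 90 min. Within title date B it was called for 14 of 33 genes and within date E for 22 of 34, against 4.02% and 6.8% of all genes on those arrays.

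Over the whole course none of these genes was called in limma's treat test of a mean more than 1.5-fold off the reference. The counts were 0 of 35 higher and 0 lower, against 2.49% and 4.49% of all genes. Means ran from -0.45 for RFC1 to 0.64 for POL31, with PSF2 at 0.62, RFA3 at 0.57 and the median at 0.05. The means of POL31 and PSF2 were themselves slightly beyond 1.5-fold, but the test did not show that they exceed it. An average over 25 time points of released cells is not an asynchronous mixture, so this comparison describes these samples against the reference culture.

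The samples of 25, 40 and 55 min touched part of the group. Of 34 genes that could be compared with the times just before and after, 7 lay more than 0.5 away on the log2 scale, or 20.6%, against 44.4% of all genes. POL30, RFA3, DPB3 and PSF1 lay above and RFC1, RAD27 and POL32 below. Without these samples 26 of the 35 genes were periodic, the same 23 and PRI1, POL32 and PSF1, while the share among all genes was 24.8%. Any further part of these samples in the results was not tested.

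**Figure D5:**
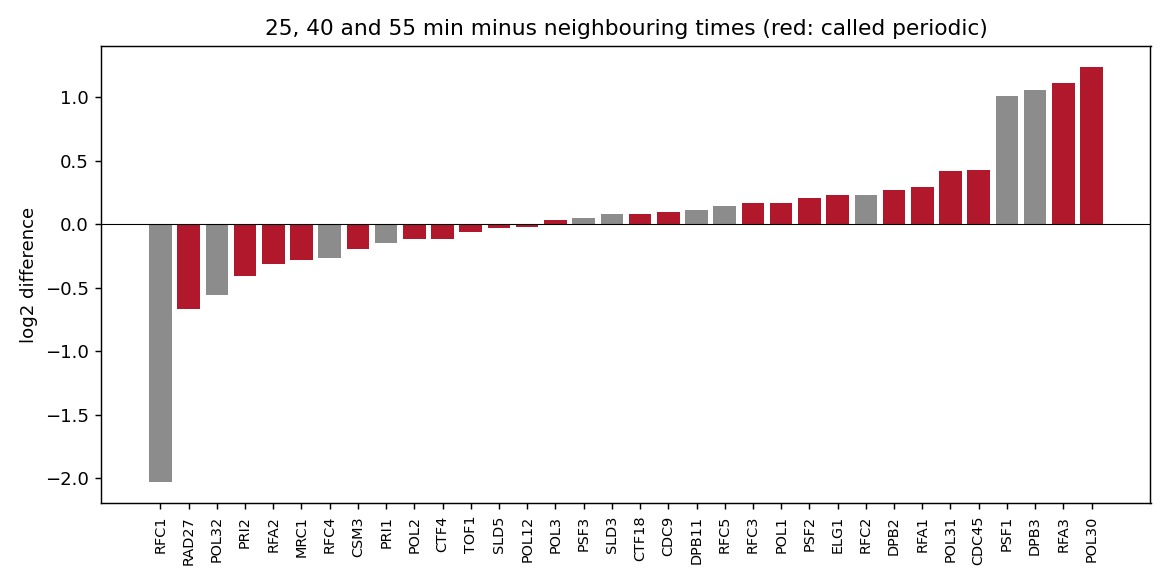
Bars give, for the 34 genes with the needed values, the log2 difference (vertical axis) between the samples of 25, 40 and 55 min and the samples next to them, ordered by size, with red for periodic genes and grey for others. RFC1 stands alone at -2.03, and PSF1, DPB3, RFA3 and POL30 lie between 1.01 and 1.24.

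Other genes of DNA replication took part to differing extents. Of 17 genes for origin licensing and the helicase, 7 were periodic. At release 0 rose and 0 fell, against 5.51% and 4.44% of all genes. In the first wave 2 lay above and 1 below the trough, against 8.16% and 7.64% of all genes. The periodic ones of largest size were ORC1, the ATPase subunit of the origin recognition complex (0.72 ± 0.17, peak at 47.6 min), MCM5 (0.67 ± 0.14, 10.2 min) and MCM2 (0.58 ± 0.13, 2.39 min), both of the helicase ring, and TAH11, the helicase loading factor Cdt1 (0.50 ± 0.10, 47.3 min). None of these 4 had its fitted peak within the 18.6 to 32.1 min of the fork genes.

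Of 8 genes of dNTP supply, 3 were periodic. They were RNR1 (2.56 ± 0.44), the thymidylate synthase CDC21 (2.08 ± 0.24, peak at 27.5 min) and RNR3, the second large subunit of ribonucleotide reductase (1.13 ± 0.21, peak at 24.8 min), and 4 of the 8 rose at release. RNR1 and RNR3 are paralogs, and a probe may read both. Of 14 other fork and lagging strand genes, 13 were tested and 4 were periodic: RNH201 and RNH202 of RNase H2, the topoisomerase TOP2 and the helicase PIF1, with sizes of 0.66 to 1.05 and peaks at 23.8 to 31.2 min. Of 9 genes of bypass synthesis, RAD5 alone was periodic (0.91 ± 0.17, peak at 19.0 min). At release 4 of the 13 other fork genes and 0 of the bypass genes rose. In the first wave 3 genes of dNTP supply, 6 other fork genes and 1 bypass gene lay above the trough, and 0 lay below. The shares in these lists are read beside the 13.2% of all genes that were periodic. Those for the windows are read beside the 5.51% that rose at release and the 8.16% that lay above the trough in the first wave.

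Genes next to the 35 on the chromosomes were looked up in the gene order of assembly R64. Of 64 neighbours that are not members and were tested, 14 were periodic, or 21.9%, against 13.2% of all genes. POL30 and RFC5 are themselves neighbours, with sizes of 2.15 and 0.44 and fitted peaks at 24.1 and 28.1 min. POL3 lies between QRI1 and the checkpoint kinase gene DUN1, both periodic, with sizes of 0.93 and 1.07 against 0.84 for POL3 and fitted peaks at 22.4 and 26.8 min; these were chosen after their values were seen. Signals of overlapping or antisense transcripts cannot be told apart on these probes, whose sequence and strand were not used here.

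The 2 array sets gave close values for most of these genes. The SD over time of the difference between the sets had a median of 0.23 on the log2 scale for the 35 genes and 0.27 for all genes. Peak times in the sets differed by a median of 0.91 min over the 23 periodic genes, and by 8.81 min at most, for PSF2 (26.7 min in set 1 and 17.9 min in set 2). Since the arrays of a time point are called technical, this spread says nothing of that between cultures.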

How the data were processed

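The deposited values were read as log10 ratios, with the mutant sample (Cy5 per the labels) over the asynchronous wild type (Cy3). The base is inferred from limits at exactly -2 and 2, and the direction from the dyes and from FUS1, a pheromone-induced gene that stood at 3.82 at 0 min; neither is stated for the values, and all log2 sizes depend on the base. How the authors scanned, background-corrected, normalized and filtered the spots is not given in the sources used here; without intensities, the number of arrays limits the precision. Dyes were never swapped, so dye bias cannot be told apart from a gene's mean ratio. The reference is 1 control sample, and its own spread does not enter the tests.

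From these values, 12 control rows were left out, the 212 values on the limits (1 of them of a replication gene) became missing, values were put on the log2 scale and centred array by array on the median, and both arrays of a time were averaged. Gene names are those of assembly R64, in which 5704 of 6205 ORFs were found; the file names no build, so no coordinates are given. The arrays held values for 5528 to 6110 ORFs, and 31 single values of the 35 genes were missing. Genes measured at 20 or more time points were tested, 6063 in all, with limma 3.58.1 in R 4.3.3, and p-values were adjusted by Benjamini-Hochberg over all of them. The period, 70 min, was the value between 40 and 90 min that left the least residual variance over 32 markers (SBF targets, histones and the CLB2 cluster), none of them among the 35, and was the same in each array set. SEs of peak times come from the delta method. Window contrasts came from a limma fit with 7 windows as groups, and the mean was tested with treat against 1.5-fold. Figures used matplotlib 3.10.9 in Python 3.11.15.

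Samples were grouped by the time in their titles. All 35 genes are named, with YOX1, FUS1, RNR1, HTA1 and HHF1 and, of each pathway list, the up to 4 periodic genes of largest size. The genes, the lists and the tests were chosen with earlier results of these data known. The scripts were tested on simulated data. The alternatives were each array set by itself, no centring, scaled arrays, filters on missing values, the odd samples and labels, title date, array set, the period and wave form, the windows and the thresholds; window contrasts within title dates, a period of 71 min, the course without 0, 5 and 10 min, and each time point left out in turn were added after the data were seen. Promoter sequences were not analysed here.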

Additional observations from a re-analysis of the deposited data

Results flagged for a closer look

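For 8 genes the height of the 2 waves differed by limma's test of the first wave minus the second, in which the trough cancels. The log2 differences were 0.738 for DPB2 (adjusted p = 0.0243), 0.669 for POL3 (0.00763), 0.611 for POL31 (0.0494), 0.381 for RFC3 (0.0325), 0.644 for ELG1 (0.00357), 0.576 for CDC9 (0.0416), 0.588 for PSF2 (0.00631) and 0.483 for CSM3 (0.0438), each as the adjusted p of limma. The first wave was the higher in all 8. For DPB2, POL3 and PSF2 the highest later value lay at 80 min, before the window of the second wave. POL30 (1.26), CDC45 (0.91) and POL1 (0.83) had larger differences that did not pass the test, with SEs of 0.45, 0.29 and 0.30.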

How the results depend on the processing

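Bracketed percentages here are the shares of all genes called in the same setting. The 23 periodic genes (13.2%) became 23 without replicate 1 (array set 2 alone, 11.5%) and 19 without replicate 2 (array set 1 alone, 9.69%). They became 20 to 24 with each time point left out. Within title dates A, B, D and E, each with 8 to 14 arrays, they were 7, 15, 0 and 17 (shares and limits given above). Calls of PRI1, POL32, RFA3, RFC3, RFC5, ELG1, PSF1 and PSF2 changed under some alternative. Release calls (24, 5.51%) ran from 12 without 0 min (2.56%) to 26 without 25 or 30 min (5.39% and 5.18%). They were 22 (5.26%) and 23 (3.95%) in array sets 2 and 1 alone, and 3 within date A (0.436%). With windows moved 5 min later, 2 genes were called at release (2.82%) and 2 for the second wave over the trough (1.9%). First minus second wave then gave 1 (2.49%) and arrest over trough 10 (8.26%). The release difference reversed for POL12 (-0.16), PRI2 (-0.014) and ELG1 (-0.0094). First wave calls (24, 8.16%) ran from 23 (6.86%, without 20 min) to 26 (10.4%, without 25 min) over time points left out. In array sets 2 and 1 alone they were 25 (8.62%) and 24 (6.28%), and within dates A and D they were 0, as among all genes. Second wave calls (10, 2.38%) ran from 5 without 60 or 90 min (6 without 95 min) to 14 without 0 min (3.15%) or 10 min (3.28%). They were 4 at an adjusted p under 0.01 (0.775%) and 22 within date E (6.8%). First minus second wave (8, 3.78%) gave 10 in array set 2 alone (4.79%) and 3 in array set 1 alone (2.02%). With single time points left out it ran from 3 (20, 95 or 100 min) to 16 (30 min, 5.16%). It was 14 without 0 min and 15 without 10 min (4.34% in both). The count was 4 without 15, 25, 85 or 90 min and 5 without 60, 65, 75, 110 or 115 min. It was 1 with scaled arrays (2.77%), 15 without 25, 40 and 55 min (7.56%) and 13 without the arrays titled M (3.87%). With title date and with array set as a factor it was 4 (1.34%) and 18 (5.28%), and at an adjusted p under 0.01 it was 3 (1.81%). Arrest over trough (1, 5.92%) was 0 in array set 2 alone (5.28%) and 1 in array set 1 alone (4.84%). It was 0 without 10 min (4.88%) or 55 min and 4 without 0 min (6.17%). Without 5 min it was 1 (3.41%), which was then SLD5 and not POL12. Without 25, 40 and 55 min it was 2 higher (13.2%) and 3 lower (13.5%). It was 0 at an adjusted p under 0.01 (3%) and within date A (0.272%), with 1 lower under array set as a factor (4.5%). The mean was called off the reference for 0 genes without replicate 1 (3.86%), for 1, POL31, without replicate 2 (13%) and for 6 against 1.2-fold (28.4%). Counts rose under some of these settings and fell under others; the cause was not tested.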
